A study of Homo sapiens with 2 samples.

Results

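The NRF2 programme of A549 cells was described here through 37 genes: the transcription factor NRF2 (encoded by NFE2L2) and its partners, enzymes that make and use glutathione, and enzymes that supply NADPH, those of the pentose phosphate pathway among them. The genes were listed by symbol and looked up in the annotation of the array, and 36 of the 37 had at least 1 probe set of their own, that is, one annotated with no other gene, as did 19775 genes on the array in all. AKR1B1 had none and was not analysed here. A549 is a human lung adenocarcinoma line. The spheroid cells were kept unattached for 12 days in DMEM/F12 without serum, to which EGF (20 ng/ml), bFGF (10 ng/ml) and N2 supplement were added. The monolayer cells were kept attached for 12 days in DMEM with 10% FBS, penicillin, streptomycin and glutamine. Attachment, base medium, serum and growth factors therefore differed together, and 1 array was hybridised per culture, so no difference below has a replicate error or a test. In the free text given for each sample, the submitters name another cell line, a hepatoma, and a compound, while the titles, the cell line field and the study's methods name A549 and the media given here.

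As background, NRF2 is held at a low level in unstressed cells by KEAP1, which delivers it to a ubiquitin ligase. When KEAP1 is modified by electrophiles or is mutated, NRF2 accumulates, pairs with small MAF proteins and activates genes that carry an antioxidant response element. These genes cover cystine import, glutathione synthesis, conjugation and reduction, thioredoxin, NADPH supply and the reduction of quinones and carbonyls. A549 is known to carry a loss-of-function KEAP1 mutation and to run this programme at a high level in ordinary culture.

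Signals are the deposited linear intensities. The median of each array, 119 for spheroid and 108 for monolayer, was used as a floor, since detection calls were not used here, and a ratio with only 1 culture above it is a lower bound. Each gene was read from its brightest probe set. Of the 36 genes, 34 were above the floor in both cultures, GSTA1 was above it in spheroid culture alone, and UGT1A6 was above it in neither. Values of a bulk culture do not separate fewer expressing cells from less RNA per cell.

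As a set, the NRF2 genes had a median ratio near equal signal, with single genes apart in both directions. Of the 35 genes above the floor, 17 had a higher signal in spheroid culture and 18 a lower one, where 52.8% of all genes were higher, with a median log2 ratio of spheroid over monolayer of -0.02, against 0.04 for all 13229 genes above the floor. The median moved to 0.14 under quantile normalization and to -0.16 under median scaling (each array divided by its own median), so its sign turned with the scaling. At 3-fold, 1 of 35 (2.86%) was higher, GSTA1, against 2.34% of all genes, and 0 were lower, against 2.11% of all genes. At 2-fold, GSTA1 and ME1 were higher, 5.71% against 6.86% of all genes, and HMOX1 and GSTP1 were lower, 5.71% against 5.5% of all genes. Over the other settings run at this limit the counts varied between 1 and 3 in each direction. ME1 did not reach 2-fold under median scaling (0.93), GSTP1 under quantile normalization (-0.96), and ME1 (0.79) and GSTA1 (0.78) when probe sets were averaged geometrically. EPHX1 reached it under quantile normalization (1.07), GSR under median scaling (-1.10), and AKR1C1 (1.18) and TKT (-1.28) by the geometric average. The shares past either limit were near those of all genes. Within 1.5-fold lay 28 of the 35 (80.0%), against 69.6% of all genes, and the 7 outside were GSTA1, ME1, EPHX1, SLC7A11, GSR, GSTP1 and HMOX1. These comparisons with all genes were not matched for signal. The lowest spheroid signal among the 35 was 308, and 34 of them were above the floor in both cultures, against 11528 of the 13229 genes. Regardless of direction, the median absolute log2 ratio was 0.366 for the 35 genes and 0.364 for all genes above the floor, so their typical difference was like that of all genes. As a measure of spread within an array pair, 2 probe sets for the same gene gave log2 ratios whose difference had an SD of 0.50 across 5453 genes.

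**Figure D1:**
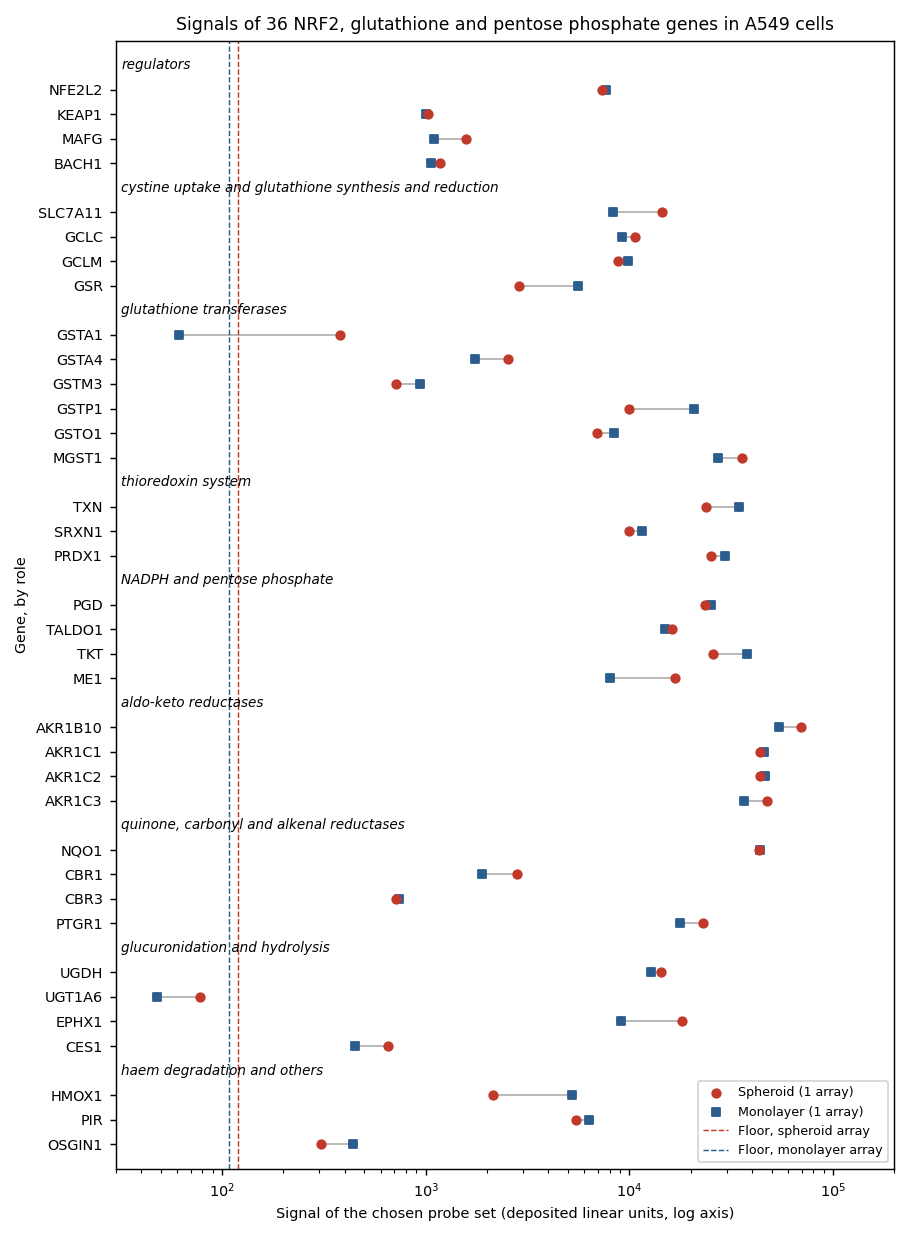
Signal of the chosen probe set of each of 36 genes in spheroid (circles) and monolayer (squares) culture on a log axis, 1 array per culture, grouped by role, with the floor of each array as a dashed line. Most pairs lie close together, with GSTA1, ME1, GSTP1 and HMOX1 at least 2-fold apart.

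The antioxidant response element was looked for near the start of these genes, since it is the site through which NRF2 acts. Its core was searched as TGACNNNGC on both strands in RefSeq windows of build GRCh38.p14 from 250 bases before to 50 bases after each annotated start. Of the 30 genes with a window, 12 (40.0%) held the core in at least 1 window, against 16.1% of all 27305 genes, and it was in 29.3% of their 41 windows, against 13.3% of all 35116 windows. HMOX1, GSR, SLC7A11, AKR1B10, PRDX1, CBR3 and CES1 had no window. The core can overlap the AP-1 heptamer TGANTCA, which 7.71% of all windows held. A match is a run of letters and not a measured site, and the window leaves out elements farther upstream. The 8 cores that lie before the start in genes with 1 annotated start are shown with up to 20 bases on either side, 5′ to 3′ on the gene's strand, because they include ME1 and GSTP1, both at least 2-fold apart between the cultures in opposite directions. The core is in capitals.

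ME1, 137 bases before the start (chr6:83431160-83431208, minus strand): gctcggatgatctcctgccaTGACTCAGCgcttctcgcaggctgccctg
GSTP1, 66 bases before the start (chr11:67583726-67583774, plus strand): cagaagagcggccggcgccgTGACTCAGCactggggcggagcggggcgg
GCLM, 34 bases before the start (chr1:93909436-93909484, minus strand): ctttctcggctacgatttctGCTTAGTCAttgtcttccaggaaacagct
PGD, 201 bases before the start (chr1:10398843-10398891, plus strand): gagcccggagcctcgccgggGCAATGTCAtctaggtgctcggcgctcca
GSTA4, 9 bases before the start (chr6:52995285-52995313, minus strand): tctcacccagccgggaccgcTGACCTGGC
GSTO1, 226 bases before the start (chr10:104254646-104254694, plus strand): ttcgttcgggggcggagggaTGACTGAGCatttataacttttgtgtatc
GSTO1, 161 bases before the start (chr10:104254711-104254759, plus strand): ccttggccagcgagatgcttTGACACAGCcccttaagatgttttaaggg
CBR1, 159 bases before the start (chr21:36069845-36069893, plus strand): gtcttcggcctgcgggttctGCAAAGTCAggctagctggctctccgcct

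ME1 and GSTP1 carried the same 9 letters, both overlapping the AP-1 heptamer, while ME1 was 2.11-fold higher and GSTP1 2.09-fold lower in spheroid culture. Among the remaining genes with the core, EPHX1, KEAP1, MGST1 and UGT1A6 have several annotated starts and in PIR the core lies after the start. The 11 genes with the core that were above the floor had a median log2 ratio of 0.04, from -1.06 to 1.07, with 6 higher and 5 lower. The 17 with a window but without the core had a median of -0.02, from -0.56 to 1.81, with 8 higher and 9 lower. Genes with and without the core thus lay both above and below equal signal.

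The regulators of the pathway were near equal in the 2 cultures. NFE2L2, the gene of NRF2, had a signal of 7355 in spheroid culture and 7655 in monolayer culture, a log2 ratio of -0.06. KEAP1, which targets NRF2 for degradation, had 1029 in spheroid culture and 1003 in monolayer culture, 1.03-fold higher. BACH1, the repressor that competes with NRF2 for its sites, had 1177 and 1063 in the same order, 1.11-fold higher. The 3 genes thus differed by little, and the direction of NFE2L2 turned under quantile normalization and that of KEAP1 under median scaling. MAFG, a small MAF partner of NRF2, had 1573 in spheroid culture and 1103 in monolayer culture, 1.43-fold higher, while its other probe set was 1.12-fold lower. A dimmer probe set of NFE2L2 read 263 in spheroid culture and 68.9, below the floor, in monolayer culture, at least 2.44-fold higher, and a probe set shared by NFE2L2 and CSNK2A1 read 1001 and 1007. The level of NRF2 protein, which is where KEAP1 acts, was not measured on these arrays.

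SLC7A11 stood higher and GSR lower in spheroid culture, with both subunits of the synthetic enzyme between. SLC7A11, the transport chain of the cystine/glutamate exchanger, had a signal of 14405 in spheroid culture and 8331 in monolayer culture, 1.73-fold higher, and its other probe sets were 1.5-fold and 1.49-fold higher. GCLC, the catalytic subunit of glutamate-cysteine ligase, had 10649.8 in spheroid culture and 9209 in monolayer culture, 1.16-fold higher, with all 3 probe sets higher. GCLM, the modifier subunit of the same enzyme, had 8792 in spheroid culture and 9795 in monolayer culture, 1.11-fold lower, with all 3 probe sets lower. The ligase subunits thus differed by small amounts in opposite directions. GSR, glutathione reductase, which turns oxidised glutathione back with NADPH, had 2867 in spheroid culture and 5564 in monolayer culture, 1.94-fold lower on its chosen probe set and 1.58-fold lower on the other.

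Glutathione transferases, which join glutathione to electrophiles, were split, with GSTA1 at the highest ratio and GSTP1 at the lowest of the 6. GSTA1, an alpha class enzyme known from liver and gut, had a signal of 379 in spheroid culture and 61.4 in monolayer culture, at least 3.50-fold higher. Its other probe set, above the floor in both cultures, read 137 and 163, 1.19-fold lower. On the mean of both log2 signals it was nearly as bright as the chosen one. The direction of GSTA1 thus rests on 1 probe set, and the geometric mean of both gave a log2 ratio of 0.78. GSTP1, the pi class enzyme of lung and many tumours, had 9919.7 in spheroid culture and 20706 in monolayer culture on its only probe set, 2.09-fold lower.

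The other transferases differed by less. GSTA4, which acts on lipid peroxidation products, had 2529 in spheroid culture and 1737 in monolayer culture, 1.46-fold higher, with its other probe set 1.96-fold higher. MGST1, a membrane-bound transferase, had 35865 and 27097.5 in the same order, 1.32-fold higher, with 4 of 4 readable probe sets higher, by up to 1.60-fold. These 2 genes were higher on every probe set above the floor. GSTO1, of the omega class, was 1.21-fold lower (6928 in spheroid culture and 8354 in monolayer culture), with its second probe set 1.33-fold lower. GSTM3, of the mu class, was 1.31-fold lower (711 and 932), and its second probe set, above the floor in spheroid culture alone, was at least 1.13-fold higher.

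The thioredoxin arm was lower in spheroid culture in all 3 members, by under 1.5-fold, where 52.8% of all genes above the floor were higher. TXN, thioredoxin, had a signal of 23850.1 in spheroid culture and 34633 in monolayer culture, 1.45-fold lower, and 1.09-fold lower on its dimmer probe set. PRDX1, a peroxiredoxin that thioredoxin reduces, was 1.17-fold lower, with 25235 in spheroid culture and 29447 in monolayer culture. SRXN1, sulfiredoxin, which repairs over-oxidised peroxiredoxins, was 1.16-fold lower, with 9903 and 11528.5. These 3 stayed lower under both other scalings, with a median log2 ratio of -0.22 that became -0.15 under quantile normalization and -0.36 under median scaling. The 8 reference genes measured had log2 ratios from -1.21 (HPRT1) to 0.42 (B2M) with a median of -0.21, and the part of scaling in the thioredoxin values was not tested.

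Genes of NADPH supply and the pentose phosphate pathway differed in direction, with ME1 higher and TKT lower in spheroid culture. ME1, the cytosolic malic enzyme that makes NADPH from malate, had a signal of 16810.5 in spheroid culture and 7986 in monolayer culture, 2.11-fold higher, and its second probe set above the floor was 2.25-fold higher. TKT, transketolase of the non-oxidative pentose phosphate branch, had 25636 in spheroid culture and 37749 in monolayer culture, 1.47-fold lower. Its second bright probe set was 1.44-fold lower, while a dimmer one read 259 and 1737, 6.70-fold lower. All 3 TKT probe sets were thus lower, by amounts that differ widely. PGD, an NADPH-producing dehydrogenase of the oxidative branch, had 23585 in spheroid culture and 25235 in monolayer culture, 1.07-fold lower, and the direction turned under quantile normalization. TALDO1, transaldolase, was 1.08-fold higher (16185 and 14978), a direction that turned under median scaling.

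**Figure D2:**
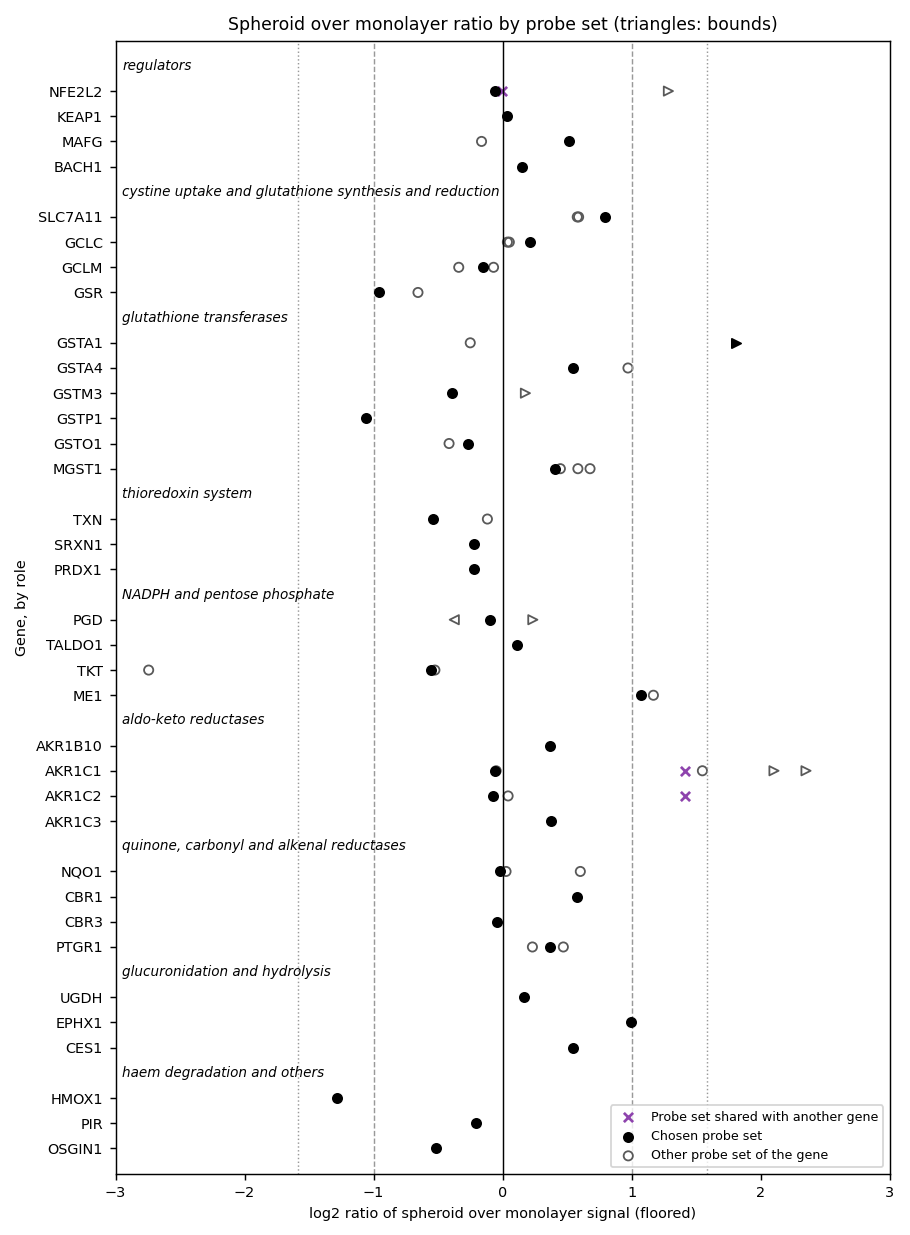
Spheroid over monolayer log2 ratio of the 35 genes above the floor, by role, with the chosen probe set filled, other probe sets of the gene hollow and probe sets shared with another gene as crosses. Triangles are bounds, dashed lines mark 2-fold and dotted lines 3-fold. The probe sets of AKR1C1 range from a log2 ratio of -0.06 to 2.35.

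Aldo-keto reductases, which reduce aldehydes, ketones and steroids with NADPH, are among the genes most tied to NRF2. Their chosen probe sets gave high signals in both cultures and small ratios. Dimmer probe sets of AKR1C1, and 1 shared by AKR1C1 and AKR1C2, were higher in spheroid culture. AKR1B10, a retinal and aldehyde reductase, had a signal of 69583 in spheroid culture and 54097 in monolayer culture, 1.29-fold higher, where the highest signal on each array was 71936 in spheroid culture and 76362 in monolayer culture. AKR1C3, a prostaglandin and steroid reductase, had 47289.6 and 36566 in the same order, 1.29-fold higher. AKR1C2, a steroid reductase, had 43851 in spheroid culture and 46281 in monolayer culture, 1.06-fold lower, while another bright probe set was 1.03-fold higher. The names of both end in _x_at, so their probes may also match other transcripts. The remaining AKR1C2 probe set was below the floor in both cultures (43.7 and 101).

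AKR1C1, a steroid reductase nearly identical in sequence to AKR1C2, gave a different answer on different probe sets. Both of its bright probe sets, whose names end in _x_at, which marks probes that may also match other transcripts, were near equal, with 43968.5 in spheroid culture and 45737 in monolayer culture on the chosen one, 1.04-fold lower, and 36548 and 37848 on the other. Its 3 dimmer probe sets were all higher. One read 7479.7 in spheroid culture and 2558 in monolayer culture, 2.92-fold higher, and the others were at least 5.10-fold and at least 4.30-fold higher. A probe set annotated with both AKR1C1 and AKR1C2 read 21075 and 7922, 2.66-fold higher, and gives no value to either gene. The part of signal level and of shared transcripts in this spread was not tested.

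NQO1 and the reductases of carbonyls and alkenals lay between near equal and 1.49-fold higher on their chosen probe sets. NQO1, the quinone reductase used as the standard readout of NRF2 activity, had a signal of 43239.5 in spheroid culture and 43856 in monolayer culture, a log2 ratio of -0.02. Of its other probe sets, the first read 44696 in spheroid culture and 29451 in monolayer culture, 1.52-fold higher, and the second 23576 and 23154, 1.02-fold higher. NQO1 was thus within 1.52-fold on all 3. CBR1, a carbonyl reductase of quinones and prostaglandins, was 1.49-fold higher, with 2811 in spheroid culture and 1882 in monolayer culture. CBR3, its paralogue, was 1.03-fold lower (717 and 739). PTGR1, which reduces reactive alkenals, was 1.29-fold higher (22892 and 17764), with all 3 probe sets higher.

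In the hydrolysis and glucuronidation group the 3 members with a ratio, EPHX1, CES1 and UGDH, were higher, also under both other scalings. None of the 3 is a glucuronosyltransferase, and 52.8% of all genes above the floor were higher. EPHX1, microsomal epoxide hydrolase, had a signal of 18074 in spheroid culture and 9095 in monolayer culture on its only probe set, 1.99-fold higher. CES1, a carboxylesterase best known from liver, had 653 and 448 in the same order, 1.46-fold higher. UGDH, which makes the UDP-glucuronic acid that conjugation consumes, had 14299 in spheroid culture and 12776 in monolayer culture, 1.12-fold higher. Under median scaling its log2 ratio was 0.02. The own probe set of UGT1A6, a phenol glucuronosyltransferase, stayed below the floor (77.8 and 48.1), and 5 probe sets shared by 6 or 9 UGT1A genes, with signals from 377 to 1248.5 in spheroid culture and from 483 to 1284 in monolayer culture, were 1.02-fold to 1.28-fold lower.

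Several of these genes are also known from liver, so hepatocyte markers are given beside them. Of 9 hepatocyte markers measured, 7 were above the floor in spheroid culture and 4 in monolayer culture, and their summed signal was 15211 in spheroid culture and 2339 in monolayer culture. ALB was at least 42.9-fold higher, APOH 8.85-fold and SERPINA1 at least 5.02-fold, while TTR and TF stayed below the floor in both cultures. AFP was at least 2.43-fold, FGB 1.54-fold and APOA1 1.30-fold higher, and APOB was 1.17-fold lower. Their part in the values of GSTA1, CES1 and EPHX1 was not tested. All 6 epithelial markers were above the floor in both cultures, with a summed signal of 68679 in spheroid culture and 104424 in monolayer culture. Among them KRT19 and EPCAM were 4.64-fold and 1.42-fold higher, and KRT7, CDH1, KRT18 and KRT8 were 3.75-fold, 1.67-fold, 1.28-fold and 1.21-fold lower. Of 6 alveolar markers 4 were above it in spheroid culture and 2 in monolayer culture, with NKX2-1 and LAMP3 in neither. Markers of leukocytes, fibroblasts and endothelium summed to at most 872 in spheroid culture and 1149.8 in monolayer culture per list, with 8 of 13 at the floor on their chosen probe sets, PTPRC, LYZ, LUM, CDH5 and VWF among them. Those above it were CD14 (111 in spheroid culture, below the floor, and 437 in monolayer culture, at least 3.66-fold lower), CD3E (144 and 140.4), COL1A1 (618 and 852), DCN (132 and 209) and PECAM1 (475 and 269.8). The ratio of 3′ to 5′ control probe sets was 1.15 in spheroid culture and 1.09 in monolayer culture for GAPDH, and 1.99 and 1.55 for ACTB.

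HMOX1 had the lowest ratio of all 35. This gene, heme oxygenase, which is released from BACH1 repression when heme is abundant, had a signal of 2131 in spheroid culture and 5198 in monolayer culture on its only probe set, 2.44-fold lower. PIR, pirin, an iron-binding nuclear protein, was 1.16-fold lower, with 5468 and 6317. OSGIN1, an oxidative stress-induced growth inhibitor, was 1.43-fold lower, with 308 in spheroid culture and 439.7 in monolayer culture. All 3 were lower, also under both other scalings, where 52.8% of all genes above the floor were higher on the deposited scale.

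Agreement between probe sets was read where a gene had several above the floor. Of 19 such genes, 11 had all probe sets in 1 direction, among them SLC7A11, GSR, ME1, MGST1, TXN and TKT, and 8 had probe sets in both directions, namely NFE2L2, MAFG, GSTA1, GSTM3, PGD, AKR1C1, AKR1C2 and NQO1. HMOX1, GSTP1 and EPHX1 were among the 16 genes with 1 probe set above the floor, so no second reading bears on them.

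Other genes of the same pathway were taken from a list of 56, of which 51 had a probe set of their own and 47 were above the floor. Of these 47, 25 were higher and 22 lower in spheroid culture, with a median log2 ratio of 0.02. At 2-fold, 6 were higher and 5 lower, and at 3-fold 2 were higher and 1 lower. The 6 and 5 are 12.8% and 10.6% of the 47, against 6.86% and 5.5% of all genes. GGT1 and EPHX2, both counted here, were above the floor in 1 culture alone. The list was chosen with earlier results of these data known, so no conclusion is drawn from these shares. At 3-fold, 2.34% of all genes were higher and 2.11% lower, and by any amount 52.8% were higher.

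In the glutathione group, 12 of 18 genes were higher and 6 lower, beside the 52.8% of all genes that were higher. GPX2, the gastrointestinal glutathione peroxidase and a known NRF2 target, had a signal of 31509 in spheroid culture and 5519 in monolayer culture, 5.71-fold higher, and its second probe set was at least 6.40-fold higher. SLC3A2, the heavy chain that carries the SLC7A11 protein to the membrane, had 2701 in spheroid culture and 5831 in monolayer culture, 2.16-fold lower, where SLC7A11 itself was 1.73-fold higher. The chains of the cystine exchanger thus stood in opposite directions. CHAC1, which degrades glutathione, was 2.13-fold lower (369 and 785), or at a log2 ratio of -0.68 with the floor at the 75th percentile, MGST2, a microsomal transferase, was 2.03-fold higher (2722 and 1343), and GGT1, which cleaves extracellular glutathione, was at least 2.41-fold higher (260.2 and 97.4).

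The remaining pentose phosphate and NADPH genes were lower in 4 of 5 cases, under both other scalings as well. Of all genes above the floor, 52.8% were higher on the deposited scale. IDH2, the mitochondrial NADP-dependent isocitrate dehydrogenase, had a signal of 535 in spheroid culture and 2211 in monolayer culture, 4.13-fold lower, and 1.79-fold lower on its second probe set. IDH1, its cytosolic counterpart, was 1.18-fold higher (17885.5 and 15122.5). The pentose phosphate isomerase RPIA and epimerase RPE were 1.56-fold and 1.51-fold lower, and PGLS, the lactonase, was 1.14-fold lower with 2 of its 4 probe sets higher. Together with TKT (1.47-fold lower), the non-oxidative genes RPIA and RPE were lower while TALDO1 was near equal.

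Among other NRF2-linked genes, 11 of 20 were higher and 9 lower, beside the 52.8% of all genes that were higher. Under median scaling 9 were higher and 11 lower. TXNIP, which binds and inhibits thioredoxin, had a signal of 1938 in spheroid culture and 591 in monolayer culture, 3.28-fold higher, with its other probe sets 2.79-fold and 2.78-fold higher, where TXN was 1.45-fold lower. The conjugate efflux pumps ABCC2 and ABCC3 were 2.79-fold and 2.09-fold higher, with signals of 8441 and 16661.5 in spheroid culture and 3024 and 7963 in monolayer culture, and all 5 probe sets of ABCC3 were higher. Both pumps export glutathione or glucuronide conjugates. NQO2, a paralogue of NQO1, was 2.04-fold lower (1339.8 and 2729.7), and EPHX2, soluble epoxide hydrolase, was at least 2.89-fold lower (109.6, below the floor, and 344), where EPHX1 was 1.99-fold higher. TXNRD1, thioredoxin reductase and a standard NRF2 target, was 1.39-fold lower (26533 and 36872). ALDH3A1, an aldehyde dehydrogenase, was 1.74-fold higher (52392 and 30054). Of the 4 other regulators with a ratio, CUL3, the scaffold of the KEAP1 ligase, was equal (5211 and 5202), and MAFF, NFE2L1 and RBX1 were 1.64-fold, 1.20-fold and 1.14-fold lower.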

How the data were processed

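RNA of 1 spheroid and 1 monolayer culture of A549 cells was measured on Affymetrix Human U133 plus 2.0 arrays. The values deposited by the authors are linear signal intensities of 54675 probe sets. Per the labels, MAS5 and GCOS made them (versions not given in the sources used here), and the study's methods name GeneSpring GX for later steps. They were already scaled, the mean without the lowest and highest 2% being 499.9 on each array, and were not scaled again.

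The annotation paired 41097 probe sets with 1 gene each and 1801 with more than 1, and it left 11777 unnamed here. Symbols were updated by Entrez identifier for 41043, and probe sets with several genes gave no value to any 1 gene. Each gene took its values from the probe set brightest on the mean of both log2 signals, values below each array's median over non-control probe sets were raised to it, and spheroid was set over monolayer as a log2 ratio. With 1 array per culture no test was run and no p-value computed. Limits of 3-fold and 2-fold were used for counts. All members are named, as are genes of the wider list that are at least 2-fold apart, and further genes of that list, markers and reference genes were named after their values were seen. Members and lists were chosen with earlier results of these data known. The promoter windows shown were restricted to genes with 1 annotated start after the matches were seen. The alternatives were no floor, floors at the 25th and 75th percentiles, quantile normalization, median scaling (each array divided by its own), averaging all probe sets for a gene geometrically, leaving out the _s_at and _x_at probe sets, and a 5-fold limit. The steps were tested on simulated arrays, with changes larger than the 3-fold limit added to genes well above the floor. That test does not bear on genes near the floor or on smaller differences. Python 3.11.15, numpy 2.4.6, pandas 2.3.3 and matplotlib 3.10.9 were used. Precision is limited by the number of arrays.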

Additional observations from a re-analysis of the deposited data

How the results depend on the processing

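GSTA1 was the only gene of the set past 3-fold, and 0 passed with the floor at the 75th percentile, with the geometric mean of probe sets or at a 5-fold limit, against 2 at a 2-fold limit. The 0 genes at least 3-fold lower became 1 without _s_at and _x_at probe sets, namely TKT at a log2 ratio of -2.74, and 2 at 2-fold. The set's median log2 ratio of -0.02 was 0.14 under quantile normalization, -0.16 under median scaling and 0.11 with the geometric mean, where the medians of all genes above the floor were -0.0005, -0.10 and 0.07. The 588 genes past 3-fold either way became 2326 with no floor, 979 and 259 with floors at the 25th and 75th percentiles, 1636 at 2-fold and 229 at 5-fold. HMOX1, GSR and SLC7A11 kept their direction under every alternative run, and so did GSTP1, EPHX1 and ME1. AKR1C1 had a log2 ratio of 1.18 with the geometric mean and 1.55 without _s_at and _x_at probe sets, and TKT had -1.28 with the geometric mean. Signs changed for 5 genes under quantile normalization (NFE2L2, PGD, AKR1C1, AKR1C2 and NQO1), 2 under median scaling (KEAP1 and TALDO1), 4 with the geometric mean and 2 without _s_at and _x_at probe sets. Without those probe sets only 28 genes of the set had a ratio, and AKR1B10, AKR1C2, CES1, MAFG, NQO1, PIR and TALDO1 had none. With the floor at the 75th percentile 33 had a ratio, and GSTA1 and OSGIN1 had none. In the wider list, IDH2 had a log2 ratio of -1.44 with the geometric mean and -0.84 without _s_at and _x_at probe sets, TXNIP had 1.57 under median scaling and NQO2 had -0.44 with the geometric mean. Its 6 genes at least 2-fold higher and 5 lower became 5 and 3 at the 75th percentile floor, where CHAC1 had -0.68, 5 and 2 without _s_at and _x_at probe sets, and 4 and 6 under median scaling. MGST2 and ABCC3 did not reach 2-fold under median scaling, at 0.88 and 0.93. No paired analysis was possible because each culture has 1 array.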
